A study of Mus musculus with 4 samples.

Results

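The chromosome 19 miRNA cluster is a long run of microRNA (miRNA) genes found only in primates. The array studied here carried 46 probes for its members among 785 perfect-match miRNA probes. A probe was taken if it was named for human and for miR-512, for any number from miR-515 to miR-526, with any letter, star or arm, and was not a mismatch probe. The choice used names only and no measured value. In the mouse gene table, assembly GRCm38.p6, no miRNA gene carried any of these numbers.

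MiRNAs were measured on 4 single-colour arrays, 1 for each group, in a study of miRNAs that respond to KIT, the receptor for stem cell factor (SCF). The groups were BMMC with SCF (primary murine mast cells grown out of bone marrow, given SCF at 100 ng per cc for 24 h) and BMMC without SCF (the same cells starved of it), then P815 with imatinib (a mouse mast cell line with a D814V KIT mutation, given the kinase inhibitor at 10 nM for 24 h) and P815 without imatinib. Per the labels, BMMC had been grown in SCF and interleukin 3, and P815 in medium free of cytokines. The labels give no strain, sex, age or number of animals, and P815 is 1 line. The arrays hold no measure of KIT activity. With 1 array in each group there is no replicate error, no test was possible, and higher and lower describe a pair of arrays. In RNA from a whole culture, fewer cells of a type and less RNA per cell cannot be told apart.

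In humans the cluster is imprinted and is expressed mainly in the placenta, and also in some early embryonic cells and tumours. Its hairpins arose by repeated duplication, so many of the mature miRNAs resemble each other closely. Each hairpin can yield a miRNA from its 5′ arm and one from its 3′ arm. In the older naming used on this array a star marks the arm that was thought to be less abundant. A miRNA finds its targets mainly through its seed, bases 2 to 8 from the 5′ end.

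Some members share a seed with miRNAs that mouse cells do make. miR-519d has the seed of miR-17 and miR-106b, which promote proliferation, and miR-520a to miR-520e have the seed of the mouse miR-291a, miR-294 and miR-295 cluster of embryonic stem cells. The mouse sequences are shown because they are the mouse RNAs nearest to these probes by seed. They were picked after the values had been seen and are from RefSeq, build GRCm38.p6, written 5′ to 3′ with the seed in capitals. Mature sequences of the human members were not used here, since 0 of the 46 names matched the mouse sequence table.
mmu-miR-17-5p: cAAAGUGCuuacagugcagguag
mmu-miR-106b-5p: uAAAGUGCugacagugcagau
mmu-miR-291a-3p: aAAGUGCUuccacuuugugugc
mmu-miR-294-3p: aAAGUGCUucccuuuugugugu
mmu-miR-295-3p: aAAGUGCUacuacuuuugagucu
The first of these lies at chr14:115043684-115043706 on the plus strand, and the second at chr5:138165787-138165807 on the minus strand. The other three lie on the plus strand at chr7:3218968-3218989, chr7:3220691-3220712 and chr7:3220815-3220837.

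Each value is an intensity, the mean over spots of the foreground median on a linear scale, as deposited. The background of an array is given here by the median of its 604 mismatch probes. That median was 277.25 in BMMC with SCF, 295.75 in BMMC without SCF, 180.0 in P815 with imatinib and 203.0 in P815 without imatinib. A probe is called listed on an array where it reached 1.5 times this median, the rule that fitted every blank in the authors' processed table. Intensities of different probes do not compare amounts of RNA, because probes differ in how well they bind.

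The cluster probes mostly read at background. Their median intensity was 0.89 times the median mismatch probe in BMMC with SCF, 1.08 times in BMMC without SCF, 0.93 times in P815 with imatinib and 1.0 times in P815 without imatinib. Only a minority was listed: 6 of 46 (13.0%) in BMMC with SCF, 15 (32.6%) in BMMC without SCF, 6 (13.0%) in P815 with imatinib and 5 (10.9%) in P815 without imatinib. All 15 probes listed on any array were listed in BMMC without SCF, and 31 were listed on no array. BMMC without SCF thus had the most listed cluster probes. At 2 times the median mismatch probe it still had the most, with 6 against 2 in BMMC with SCF. A share over all probes was not computed at that stricter limit. Few cluster probes passed the 95th percentile of the mismatch probes: 2 in BMMC with SCF, 1 in BMMC without SCF, 0 in P815 with imatinib and 0 in P815 without imatinib. Of all 785 perfect-match probes, 178 passed it in BMMC with SCF, 205 in BMMC without SCF, 129 in P815 with imatinib and 149 in P815 without imatinib.

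A higher listed share in BMMC without SCF was present in the other probe sets too. Of all 785 perfect-match probes, 40.3% were listed in BMMC with SCF, 60.8% in BMMC without SCF, 39.9% in P815 with imatinib and 34.3% in P815 without imatinib. Of 107 probes named for virus or worm miRNAs, 32.7% were listed in BMMC with SCF, 56.1% in BMMC without SCF, 36.4% in P815 with imatinib and 29.9% in P815 without imatinib. A further 131 human-named probes had no mouse gene of their number. Their listed share was 37.4% in BMMC with SCF, 58.0% in BMMC without SCF, 42.0% in P815 with imatinib and 30.5% in P815 without imatinib. On each of the 4 arrays the listed share of the cluster lay below that of both these sets.

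Within the cluster, the probes that were listed were mostly those of 5′ arms. By their present names, 15 of the 46 probes belong to 5′ arms: those with a star or 5p, except miR-525* and miR-526b*, together with miR-525, miR-526a, miR-526b and miR-526c. Of these 15, 6 were listed in BMMC with SCF, 13 in BMMC without SCF, 5 in P815 with imatinib and 5 in P815 without imatinib. Of the 31 probes of 3′ arms, 0 were listed in BMMC with SCF, 2 in BMMC without SCF, 1 in P815 with imatinib and 0 in P815 without imatinib. The median 5′-arm probe stood at 1.49 times the median mismatch probe in BMMC with SCF, 1.97 times in BMMC without SCF, 1.34 times in P815 with imatinib and 1.30 times in P815 without imatinib. The median 3′-arm probe stood at 0.80 times it in BMMC with SCF, 1.03 times in BMMC without SCF, 0.86 times in P815 with imatinib and 0.92 times in P815 without imatinib.

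The contrast between arms was described after the values had been seen, and it was weaker when arms were read from the array names alone. Of 13 probes named with a star or 5p, 9 were listed in BMMC without SCF, against 6 of the 33 others. Of the 13, 4 were listed in BMMC with SCF, 2 in P815 with imatinib and 3 in P815 without imatinib, and of the 33 others 2, 4 and 2 were listed on these arrays. Both arms of 11 hairpins had a probe, and among these the 5′-arm probe was listed on at least 1 array for 9 and the 3′-arm probe for 2. The 2 were miR-512-3p and miR-520d.

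Set against each probe's own mismatch probe, the contrast between arms was weaker, and in P815 without imatinib it was not seen. The median ratio over the 5′-arm probes was 1.28 in BMMC with SCF, 1.72 in BMMC without SCF, 1.23 in P815 with imatinib and 1.08 in P815 without imatinib. Over the 3′-arm probes it was 1.08 in BMMC with SCF, 1.29 in BMMC without SCF, 1.04 in P815 with imatinib and 1.15 in P815 without imatinib. In P815 with imatinib 66.7% of 5′-arm and 67.7% of 3′-arm probes were brighter than their mismatch probe, and 20.0% of 5′-arm and 3.23% of 3′-arm probes reached 1.5 times it. In P815 without imatinib 6.67% of 5′-arm and 6.45% of 3′-arm probes reached 1.5 times it. The contrast at 1.5 times was larger in BMMC. There 33.3% of 5′-arm and 6.45% of 3′-arm probes reached it with SCF, and 73.3% and 19.4% without SCF.

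Among the 5′-arm probes, miR-518f* was the brightest on every array. It read 1238.25 in BMMC with SCF, 1268.50 in BMMC without SCF, 496.75 in P815 with imatinib and 399.25 in P815 without imatinib. Its mismatch probe, which carries the same name with the tag 2mut, read 349.0 in BMMC with SCF, 461.0 in BMMC without SCF, 196.0 in P815 with imatinib and 263.0 in P815 without imatinib. The perfect-match probe was therefore 3.55 times its mismatch probe in BMMC with SCF, 2.75 times in BMMC without SCF, 2.53 times in P815 with imatinib and 1.52 times in P815 without imatinib. Even so, miR-518f* ranked only 108 of 785 perfect-match probes in BMMC with SCF, 152 in BMMC without SCF, 183 in P815 with imatinib and 161 in P815 without imatinib.

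Besides miR-518f*, the probes listed on all 4 arrays were miR-518c* and miR-526c. miR-518c* read 439.50 in BMMC with SCF, 679.50 in BMMC without SCF, 292.75 in P815 with imatinib and 308.00 in P815 without imatinib. miR-526c read 423.25 in BMMC with SCF, 627.25 in BMMC without SCF, 334.25 in P815 with imatinib and 307.75 in P815 without imatinib. Both were highest in BMMC without SCF and stood within 1.52 to 2.30 times the median mismatch probe. The mismatch probe of miR-526c was almost as bright in BMMC with SCF, at 408.5, and brighter in P815 with imatinib, at 475.5.

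miR-524* and miR-518a-2* were bright in BMMC and near background in P815. miR-524* read 888.00 in BMMC with SCF, 694.50 in BMMC without SCF, 234.00 in P815 with imatinib and 269.25 in P815 without imatinib. miR-518a-2* read 486.75 in BMMC with SCF, 868.00 in BMMC without SCF, 198.25 in P815 with imatinib and 202.75 in P815 without imatinib. Their mismatch probes stayed low in BMMC, with miR-524* at 256.5 with SCF and 276.0 without SCF, and miR-518a-2* at 241.0 with SCF and 236.0 without SCF. miR-525 was also listed in BMMC only, at 434.75 with SCF and 499.00 without SCF, and read 239.00 in P815 with imatinib and 264.50 in P815 without imatinib.

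The remaining listed probes stood at no more than 2.09 times the median mismatch probe on any array, apart from miR-520d, described with its seed group. miR-526b was listed on 3 arrays, at 545.75 in BMMC without SCF, 311.75 in P815 with imatinib and 322.25 in P815 without imatinib, and read 400.00 in BMMC with SCF, where the limit was 415.9. In P815 the mismatch probe of miR-526b was the brighter, at 357.0 with imatinib and 334.5 without. miR-516-5p was listed in BMMC without SCF and in P815 without imatinib, and miR-526a in BMMC without SCF and in P815 with imatinib. On the P815 array where each was listed, miR-516-5p stood at 1.07 times and miR-526a at 1.04 times its own mismatch probe. miR-520d*, miR-519e*, miR-512-3p, miR-512-5p and miR-517* were listed in BMMC without SCF only, between 1.64 and 2.09 times the median mismatch probe. In BMMC with SCF, miR-516-5p and miR-520d* lay just under the limit, each at 1.49 times that median.

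Of the 15 5′-arm probes, miR-515-5p and miR-520a* were listed on no array. miR-515-5p lay below the median mismatch probe on all 4 arrays, between 0.71 and 0.88 times it. miR-520a* lay between 0.91 and 1.06 times it, and its own mismatch probe was the brighter on 3 arrays and equal to it, at 183.5, in P815 with imatinib. The 5′ arms of the cluster were thus not all above background.

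Most 3′-arm probes read near the level of the mismatch probes. The highest were miR-520d, which reached 2.10 times the median mismatch probe, and miR-512-3p, between 1.37 and 1.82 times it. miR-520c reached 1.45 times it in P815 with imatinib. All 6 miR-518 probes of this arm, from miR-518a to miR-518f, lay between 0.69 and 1.07 times the median mismatch probe over the 4 arrays. miR-517a, miR-517b and miR-517c, which are near-identical miRNAs, lay between 0.87 and 1.21 times it. The 5 miR-519 probes of this arm spanned 0.72 to 1.43 times it, with miR-519c the highest, at 424.25 in BMMC without SCF. In all, 7 of the 31 lay below the median mismatch probe on every array, among them miR-521, miR-524, miR-525* and miR-526b*. By mean log2 value over the 4 arrays the dimmest was miR-521, although other 3′-arm probes were dimmer in BMMC without SCF and in P815 with imatinib. It read 178.75 in BMMC with SCF, 249.25 in BMMC without SCF, 138.75 in P815 with imatinib and 143.50 in P815 without imatinib.

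miR-519d has the seed of mouse miRNAs that these arrays listed throughout, and its own probe read at background. It read 213.25 in BMMC with SCF, 305.00 in BMMC without SCF, 153.50 in P815 with imatinib and 169.25 in P815 without imatinib, between 0.77 and 1.03 times the median mismatch probe. The probe for miR-17-5p, whose seed is the one printed above, stood at 13.47 times that median in BMMC with SCF, 21.37 times in BMMC without SCF, 24.64 times in P815 with imatinib and 15.94 times in P815 without imatinib. miR-20a, miR-20b, miR-93, miR-106a and miR-106b were likewise listed on all 4 arrays, between 3.28 and 30.70 times it. The mismatch probe of miR-519d read 219.0 in BMMC with SCF and 174.0 in untreated P815, above the perfect match on both arrays.

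In the group with the seed of miR-294, miR-520d stood apart. It read 306.75 in BMMC with SCF, 484.50 in BMMC without SCF, 378.50 in P815 with imatinib and 271.25 in P815 without imatinib. It was listed in BMMC without SCF and in P815 with imatinib. Its mismatch probe read lower throughout, at 182.0 in BMMC with SCF, 246.0 in BMMC without SCF, 153.5 in P815 with imatinib and 136.0 in P815 without imatinib. The mouse miR-291a-3p probe was listed on the same pair of arrays, at 486.00 in BMMC without SCF and 433.25 in P815 with imatinib, and read 321.00 in BMMC given SCF and 236.75 in P815 without imatinib. Other probes for mouse miRNAs with that or a near seed varied. miR-291b-3p was listed on the same pair, at 456.50 in BMMC without SCF and 310.25 in P815 with imatinib. miR-292-3p and miR-295 were listed on no array, and miR-293 in BMMC without SCF only. The human-named miR-302a and miR-302b probes were listed in BMMC only, and miR-302d in P815 with imatinib only. The mouse-named miR-302c probe was listed on all 4 arrays.

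The other members with that seed were not listed on any array. miR-520c read 260.75 in P815 with imatinib and 206.00 in P815 without imatinib, but its mismatch probe read 307.0 with imatinib and 168.0 without. miR-520a read 154.50 with imatinib and 220.50 without. miR-520b read 154.50 in P815 with imatinib and 168.00 without, and miR-520e 135.00 with and 165.00 without. The mouse miR-294 probe was listed only in P815 with imatinib, at 476.75, against 198.50 without imatinib, and was dimmer than its own mismatch probe on all 4 arrays. These intensities are unscaled and those of miR-520a, miR-520b, miR-520c and miR-520e are not above the listing limit, so no direction is read from them.

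Every cluster probe had a mismatch probe of its own, which allows a check that does not use the array's median mismatch probe. No background was subtracted from either intensity, so these ratios still depend on the background of the array. The perfect match was the brighter for 33 of 46 probes in BMMC with SCF, 41 in BMMC without SCF, 31 in P815 with imatinib and 35 in P815 without imatinib. The margin was small, with a median ratio of 1.17 in BMMC with SCF, 1.37 in BMMC without SCF, 1.07 in P815 with imatinib and 1.13 in P815 without imatinib. The share brighter was 71.7% in BMMC with SCF, 89.1% in BMMC without SCF, 67.4% in P815 with imatinib and 76.1% in P815 without imatinib. It lay near that over all 604 probes with a mismatch probe, which was 76.5% in BMMC with SCF, 91.1% in BMMC without SCF, 74.8% in P815 with imatinib and 79.3% in P815 without imatinib. Among 73 virus and worm probes it was 74.0% in BMMC with SCF, 84.9% in BMMC without SCF, 68.5% in P815 with imatinib and 69.9% in P815 without imatinib. These counts of brighter probes thus do not set the cluster apart. At least 1.5 times the mismatch probe was reached by 7 probes in BMMC with SCF, 17 in BMMC without SCF, 4 in P815 with imatinib and 3 in P815 without imatinib. Among 285 mouse miRNAs with a mismatch probe, 43.2% reached 1.5 times in BMMC with SCF, 68.4% in BMMC without SCF, 38.6% in P815 with imatinib and 36.5% in P815 without imatinib. Among the virus and worm probes the share was 20.5% in BMMC with SCF, 41.1% in BMMC without SCF, 23.3% in P815 with imatinib and 17.8% in P815 without imatinib. Among the cluster probes it was 15.2% in BMMC with SCF, 37.0% in BMMC without SCF, 8.70% in P815 with imatinib and 6.52% in P815 without imatinib. Over all 604 probes with a mismatch probe it was 34.9% in BMMC with SCF, 57.6% in BMMC without SCF, 32.0% in P815 with imatinib and 28.1% in P815 without imatinib. At 1.5 times, the cluster share was thus below that over all probes on every array.

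For 23 of the 46 cluster probes the perfect match was the brighter on all 4 arrays, and the matching share over all probes was not computed. For miR-517b and miR-520f the mismatch probe was the brighter on all 4, for miR-520a* on 3 with the tie given above, and for miR-515-5p, miR-517a and miR-518a on 3. The mismatch probe of miR-518a read 547.5 in P815 with imatinib and 160.0 in P815 without imatinib, while the perfect match read 160.00 with imatinib and 171.25 without. The mismatch probe of miR-518a was thus far above its perfect match in P815 with imatinib and close to it in P815 without imatinib.

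The comparison of BMMC with and without SCF asks what KIT stimulation does in primary mast cells. Differences were taken on the log2 scale after background correction and quantile scaling over all perfect-match probes, for probes listed on at least 1 of the 2 arrays, and read against a 2-fold limit. Of the 15 cluster probes that entered, none reached 2-fold in either direction, with 0 higher and 0 lower with SCF. In the values the authors processed, which are blank below the listing limit, only the 6 cluster probes listed on both arrays could be compared. Of these 6, 3 were 2-fold lower with SCF, and a share over all probes was not computed in those values. In the scaled values, over all 481 perfect-match probes that entered, 2.08% were 2-fold higher and 0.0% were 2-fold lower. The median log2 difference was -0.09 over the 15 cluster probes and -0.05 over all that entered, with SDs between probes of 0.32 and 0.33. Over the 6 cluster probes listed on both arrays the median was 0.13 in the scaled values and -1.04 in the processed values. Before scaling, the median log2 intensity ratio of all that entered was -0.56, and scaled differences are relative to that shift.

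miR-524* had the highest difference with SCF, at 0.88 on the log2 scale or 1.84-fold, which became 1.04 with median centring, 0.44 without scaling and 0.35 in the values the authors processed. It was the only one of the 46 with a higher deposited intensity with SCF than without, against 32 of all 785 probes. Its mismatch probe differed by 0.53 on the scaled log2 scale, but in deposited intensity read 256.5 with SCF and 276.0 without. miR-518f* followed at 0.52, with its mismatch probe at 0.15, but it turned to -0.02 without scaling and to -0.28 in the values the authors processed. miR-525 lay at 0.36, and likewise turned, to -0.21 without scaling and -0.63 in the processed values. The lowest was miR-518a-2* at -0.29, and miR-526a lay at -0.21. The mismatch probe of miR-518a-2* differed by 0.75, but in deposited intensity read 241.0 with SCF and 236.0 without. Most mismatch probes of the cluster were higher with SCF on the scaled values, whose scaling was set by the perfect-match probes. The median perfect-match probe read 356.75 with SCF and 504.0 without, and the median mismatch probe 277.25 and 295.75. miR-518a-2* was listed on both arrays and miR-526a only without SCF.

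Differences of this size also separate probes for 1 miRNA. Where the array held probes named for different species for 1 miRNA, their SCF differences lay a median of 0.14 apart on the log2 scale over 55 miRNAs, with a 95th percentile of 0.62. Of the cluster probes, miR-524* alone lay farther than that from 0 with SCF.

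The comparison of P815 with and without imatinib asks what a KIT inhibitor does in the mutant line. Only 7 cluster probes entered, and none reached 2-fold, with 0 higher and 0 lower with imatinib, against 11.3% higher and 5.06% lower among all 336 perfect-match probes that entered. The median log2 difference was -0.16 over the 7, with an SD between probes of 0.47, and -0.03 over all that entered, with an SD of 0.80. Before scaling the median log2 intensity ratio of all that entered was 0.32.

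miR-516-5p was lowest with imatinib. It read 263.25 with imatinib, where it was not listed, and 348.75 without, a log2 difference of -0.82, which was -0.41 with median centring and -0.42 without scaling. Its mismatch probe fell further, reading 178.5 with imatinib and 326.5 without, a log2 difference of -1.34. The highest was miR-520d at 0.68, bounded at 1.26-fold higher because it was not listed without imatinib, and its mismatch probe differed by 0.71. The 3 probes listed on all 4 arrays differed by -0.21 for miR-518f* (0.46 with median centring and 0.44 without scaling), -0.16 for miR-518c* (0.03 with median centring) and 0.11 for miR-526c (-0.11 in the values the authors processed), and the mismatch probe of miR-526c by 1.0. Probes for 1 miRNA named for different species lay a median of 0.19 apart for imatinib, with a 95th percentile of 1.10, over 33 miRNAs, so none of these cluster differences exceeded that gap.

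The third comparison set P815 without imatinib, whose mutant KIT had no inhibitor, against BMMC with SCF. Of 8 cluster probes that entered, 0 passed 2-fold upward and 2 passed it downward in P815. The background was 16.1% higher and 24.4% lower among all 353 perfect-match probes that entered, so the 2 of 8, or 25.0%, lower are near the share over all probes. The median log2 difference was -0.01 over the 8 and 0.02 over all, and the SDs between probes were 0.77 and 1.13. Before scaling the median log2 intensity ratio of all that entered was -0.89.

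The 2 lower probes were miR-524* and miR-518a-2*. miR-524* read 269.25 in P815 without imatinib and 888.00 in BMMC with SCF, a log2 difference of -1.25. It was not listed in P815, which bounds the difference at 1.84-fold lower. miR-518a-2* read 202.75 in P815 without imatinib and 486.75 in BMMC with SCF, a log2 difference of -1.16 bounded at only 1.03-fold lower, and without background correction the difference was -0.84. On the same scaled log2 values their mismatch probes differed by 0.29 for miR-524* and 0.01 for miR-518a-2*. In deposited intensity the mismatch probes were lower in P815 too, at 220.0 in P815 without imatinib and 256.5 in BMMC with SCF for miR-524*, and at 190.0 in P815 and 241.0 in BMMC with SCF for miR-518a-2*. In this comparison, probes for 1 miRNA named for different species lay a median of 0.18 apart over 37 miRNAs, with a 95th percentile of 0.93. The scaled differences of miR-524* and miR-518a-2* lay beyond that percentile, but neither probe was listed in P815.

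miR-518f*, listed on both arrays, read 399.25 in P815 without imatinib and 1238.25 in BMMC with SCF. Its log2 difference was -0.62, and it became -1.24 with median centring and -1.84 without scaling. The highest scaled difference was that of miR-516-5p, at 0.79, which became 0.36 with median centring and -0.24 without scaling. Its intensity was 348.75 in P815 without imatinib and 414.00 in BMMC with SCF, and its mismatch probe differed by 0.82. miR-526b followed at 0.58, which became 0.28 with median centring and -0.33 without scaling, with its mismatch probe at 0.78. The direction of both thus depended on the scaling. For miR-516-5p and miR-526b the mismatch probes differed by more than the perfect matches did.

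The cells' own miRNAs were measured on the same arrays, which sets the cluster values in context. Of 7 miRNAs of blood and mast cells fixed by name (miR-142-3p, miR-142-5p, miR-223, miR-221, miR-222, miR-21 and miR-24), 7 were listed in BMMC with SCF, 7 in BMMC without SCF, 5 in P815 with imatinib and 5 in P815 without imatinib. miR-142-3p and miR-223, both known from blood cells, were those not listed in P815. miR-222 was listed in P815, but stood at 0.77 times its own mismatch probe with imatinib and 1.65 times without. Of 7 miRNAs of liver, muscle, neurons and epithelium, 2 were listed in BMMC with SCF, 4 in BMMC without SCF, 2 in P815 with imatinib and 2 in P815 without imatinib. Those listed on all 4 arrays were miR-122a and miR-206, known from liver and from muscle. Against its own mismatch probe, miR-206 stood at 1.59 times in BMMC with SCF and 1.58 times without SCF. In P815 it stood at 1.0 times with imatinib and 1.39 times without. miR-122a stood between 1.60 and 2.35 times its own mismatch probe.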

How the data were processed

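Total RNA was labelled with Cy3 by RNA ligase, per the labels' protocols. Each deposited array table holds 1 intensity per probe on a linear scale, a mean of foreground medians, per the file headers. There is no background column. Array maker, scanner, slide and number of spots: not given in the sources used here. The number of arrays limits the precision. Of 1406 probes on an array, 785 were perfect-match, 604 mismatch and 17 control probes.

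The authors' processed intensity table equalled the array intensity minus the array's median mismatch probe, times a factor of 0.834 for the SCF-treated BMMC array and 0.628 for the imatinib-treated P815 array. Its blanks followed a limit of 1.5 times that median for all 802 entries on each array. How it was made is not stated in the labels, and its scaling makes values comparable within a cell type only.

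Intensities were background-corrected with normexp (limma 3.58.1, R 4.3.3, offset 50), put on the log2 scale and quantile-normalized over the perfect-match probes of the 4 arrays. Mismatch probes were placed through each array's own map. The procedure was tested on simulated data. A first simulation changed many bright probes and returned upward changes too small, since quantile scaling assumes that few probes change. A second, with fewer changed probes and run after the first had been seen, came closer for upward changes. Upward differences may therefore be understated where many probes differ, as between P815 and BMMC. Downward changes came out too large: a true log2 change of -2 gave a median of -2.17 in the first and -2.27 in the second. Both simulations changed bright probes only, so changes near background, where most cluster probes lay, were not tested. Where a probe was listed on 1 of 2 arrays only, its difference is bounded: its listed value is set against the other array's lowest listed value, or against the probe's own value there where that is higher. A mouse miRNA had 1 probe, the mouse-named one, otherwise the human-named and then the rat-named one with a mouse gene of that number, 392 in all, a rule set after the values had been seen. Values are named for probes listed on all 4 arrays, the brightest and dimmest, those past or nearest to 2-fold, those with the brighter mismatch probe, and members sharing a seed with named mouse miRNAs. The probe set and lists were chosen with earlier results of these data known. Alternatives of scaling, background, source of values and listing were run.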

Additional observations from a re-analysis of the deposited data

How the results depend on the processing

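The deposited intensities allow no replicate check, and the number of arrays and the closeness of most cluster probes to background limit every value. A median was held to have moved when it shifted by more than the spread between probes of 1 miRNA named for different species, a measure chosen after the values had been seen. At 2 times the median mismatch probe, 2 cluster probes were listed in BMMC with SCF, 6 in BMMC without SCF, 2 in P815 with imatinib and 0 in P815 without imatinib. No share over all probes was computed at that limit. Above the 95th percentile of the mismatch probes there were 2, 1, 0 and 0 on those arrays. At least 1.5 times their own mismatch probe were 7, 17, 4 and 3, or 15.2%, 37.0%, 8.70% and 6.52%. Over all 604 probes with a mismatch probe the shares were 34.9%, 57.6%, 32.0% and 28.1%. With SCF, 1 probe, miR-524*, was 2-fold higher with median centring and 1 with the median mismatch subtracted. In the authors' processed values 3 of the 6 cluster probes listed on both arrays were 2-fold lower. The SCF median was -0.67 without scaling. Over the 6 probes listed on both arrays it was 0.13 in the scaled values and -1.04 in the authors' processed values. With imatinib, subtracting the median mismatch gave 1 probe higher and 1 lower. The imatinib median turned to 0.27 with median centring, 0.25 without scaling and 0.23 at the stricter listing, so its sign depended on the setting. For P815 without imatinib against BMMC with SCF, 2 probes were higher with the median mismatch subtracted. The number lower was 3 with median centring and 3 without scaling, 1 without background correction, 0 over probes listed on both arrays and 1 at the stricter listing, and the median was -0.73 without scaling and -0.93 at the stricter listing. For the 2-fold counts under these alternatives, a share over all probes was computed only for probes listed on both arrays. In this comparison 17.2% of all 232 such probes were 2-fold lower in P815. Over single probes, 161 of 182 recomputed differences kept their sign and 21 did not, and 48 moved by more than that spread. No 2-fold difference changed sign, but only 2 cluster probes, both in P815 against BMMC, had reached 2-fold under the main setting.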

Other observations

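Probes of the same or the neighbouring human cluster that the name rule left out were also read. miR-498, which lies in the chromosome 19 cluster, was listed on all 4 arrays, at 1121.25 in BMMC with SCF, 1051.00 in BMMC without SCF, 753.00 in P815 with imatinib and 335.50 in P815 without imatinib. It stood at 2.11 times its mismatch probe in BMMC with SCF, 2.05 times in BMMC without SCF, 1.54 times in P815 with imatinib and 1.03 times in P815 without imatinib. miR-527 was listed in BMMC without SCF only, at 522.25. Of the neighbouring miR-371 to miR-373 cluster, miR-373* was listed on 3 arrays, at 927.75 in BMMC with SCF, 1412.75 in BMMC without SCF and 664.75 in P815 with imatinib, and read 297.50 in P815 without imatinib. miR-371 was listed on no array.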
